A study of Mus musculus with 19 samples.

Results

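Gain of the surface antigen 6C3 was examined among neonatal mouse limb cells that carried neither Thy nor CD105. The comparison set 3 arrays of Thy-6C3+CD105- cells (hereafter 6C3+ cells) against 3 arrays of Thy-6C3-CD105- cells (6C3- cells), 6 of the 19 arrays in the series. Arrays were assigned by the cell population recorded in the labels and not by their titles. For 2 of the 3 6C3+ arrays, replicates 2 and 3, the title reads Thy+ where the recorded population reads Thy-. All 6 arrays came from wild-type mice at postnatal day 3; the growth protocol describes the animals as GFP-labeled, and the label gives no treatment. Cells were taken from the fore and hind limbs of a pooled litter, dissociated mechanically and with collagenase, and sorted within a CD45-Ter119-Tie2-AlphaV+ gate, which leaves out blood and endothelial cells and keeps cells bearing integrin alphaV. RNA was amplified in successive rounds and measured on an Affymetrix mouse genome array. Whether the 3 arrays of a population came from separate litters is not stated, so the p-values measure the spread between these arrays, which may be technical. In sorted bulk RNA, fewer cells of a type and less RNA per cell cannot be told apart.

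6C3 is an epitope of glutamyl aminopeptidase, the product of Enpep, a membrane enzyme that removes acidic residues from the ends of peptides such as angiotensin II. It has long been used as a marker of stromal cells that support lymphoid precursors. The neonatal limb skeleton is largely cartilage: growth plate chondrocytes divide in columns, secrete a matrix of collagens, aggrecan and matrilins, and then enlarge into hypertrophic cells that make type X collagen and signal through Indian hedgehog. Around them lie perichondrium, tendon and other connective tissue.

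The sorted antigens were checked first on the log2 scale of the normalized arrays. Enpep was 10.91, 11.24 and 10.76 in the 3 6C3+ arrays and 7.51, 6.97 and 8.44 in the 3 6C3- arrays. Every 6C3+ array lay above every 6C3- array, and the difference of 3.33 ± 0.47 (SE) corresponded to 10-fold (limma, adjusted p = 0.000351). Thy1, the gene of the Thy antigen, was 5.71, 5.78 and 5.95 in 6C3+ cells and 5.46, 5.39 and 5.28 in 6C3- cells, against means of 10.23 ± 0.21 and 10.34 ± 0.14 (SD, n = 3 each) in the Thy+ populations of the series. The 2 arrays with a Thy+ title thus had Thy1 levels near those of the other Thy- arrays. Eng, which encodes CD105, averaged 7.23 ± 0.59 in 6C3+ cells and 7.20 ± 0.21 in 6C3- cells (SD, n = 3 each), below the 8.64 ± 0.23 of Thy-6C3-CD105+ cells. Itgav, which encodes integrin alphaV, differed by 0.26 ± 0.25 (SE, adjusted p = 0.688). Tek, the gene of Tie2, differed by 0.10 ± 0.17, and Ptprc, the gene of CD45, by 0.41 ± 0.27, neither past the test.

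The 6 arrays correlated with one another at 0.944 to 0.986 over genes. Deposited array medians ran from 5.60 to 6.02 in the series, and the highest belonged to replicate 2 of the 6C3+ cells. The spiked poly-A controls split the neonatal arrays into 11 with a high and 7 with a low level, and both populations held arrays of each kind. High were replicates 2 and 3 of the 6C3+ cells and replicate 1 of the 6C3- cells. The high 6C3+ arrays are those titled Thy+, so title and poly-A level cannot be told apart among the 6C3+ arrays. All 498 genes called below had the same sign of difference within the high and within the low arrays, on the same data that called them. For the 494 whose arrays did not overlap this had to hold, so it is no test of the calls. Over all genes, the differences within the high and within the low arrays correlated at 0.538. The 3'-to-5' log2 ratio of Gapdh, a measure of RNA integrity after amplification, was 2.08 to 2.32 in 6C3+ cells and 1.53 to 2.15 in 6C3- cells, ranges that overlapped.

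Among 18193 genes, 498 (2.74%) differed between 6C3+ and 6C3- cells at an adjusted p under 0.05 (limma, two-sided, Benjamini-Hochberg), and such genes are named called. In 6C3+ cells 226 genes (1.24%) were higher and 272 (1.5%) were lower. The falls were the larger changes. At least a 2-fold difference was reached by 126 of the higher and 222 of the lower genes, and at least an 8-fold difference by 19 of the lower genes against Enpep alone among the higher ones. The next rise after Enpep was 2.29, that of Rspo2. Values of the 3 arrays did not overlap between the populations for 494 of the 498 called genes and for 3211 (17.6%) of all genes. The median of all differences was 0.07. When the arrays were brought only to a common median, 82 genes were higher and 315 lower, a share of 20.7% higher, so the balance of rises and falls depends on the scaling. With the 2 Thy+-titled arrays held out as a population of their own, 1 array of 6C3+ cells was left, assumed to vary like the others, and 167 genes were called; of the 98 called genes tracked by name through the alternatives, 48 kept their call. Among the 14 largest rises without overlap, Rspo2, Il33, Mettl24, C1qtnf7, Rgs4, Vat1l, Aldh1a1, Ntn1 and Sbspon lost their call with these arrays held out. Enpep, Fgf9, Kcnk2, Sema3b and Thbs4 kept it, and of the 14 largest falls only Efemp1 lost it. With the 6 arrays fitted alone, 204 genes were called. Of the 98, 18 lost their call at a common median, all of them rises: B2m, Car9, Cd1d1, Col22a1, Ctsk, Fbln1, Igf1, Itgbl1, Kera, Mmp23, Ntn4, Pdgfra, Plin2, Sbspon, Tgfb3, Thbs2, Tnc and Vegfc.

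To show the start regions of 3 genes on which the comparison turns, the promoter windows of Enpep, the antigen's own gene, and of Matn1 and Col10a1, a cartilage and a hypertrophic gene that fell, are printed from RefSeq (build GRCm38.p6), 250 bases before to 50 bases after the start, 5′ to 3′. Capitals mark exact matches on either strand to 5 motifs: the TATA box spelled TATAAA, the GC box spelled GGGCGG, the core bound by SOX proteins spelled ACAAAG in its first form, its second form spelled ACAATG, and the AP-1 site spelled TGANTCA. No matches overlap in these windows.
Enpep, chr3:129332700-129332999, - strand: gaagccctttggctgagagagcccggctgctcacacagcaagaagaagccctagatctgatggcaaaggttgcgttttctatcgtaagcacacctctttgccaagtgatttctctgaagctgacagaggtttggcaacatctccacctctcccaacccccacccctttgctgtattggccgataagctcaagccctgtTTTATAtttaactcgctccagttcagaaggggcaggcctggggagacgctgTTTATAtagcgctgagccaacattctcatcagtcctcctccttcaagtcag
Matn1, chr4:130944135-130944434, + strand: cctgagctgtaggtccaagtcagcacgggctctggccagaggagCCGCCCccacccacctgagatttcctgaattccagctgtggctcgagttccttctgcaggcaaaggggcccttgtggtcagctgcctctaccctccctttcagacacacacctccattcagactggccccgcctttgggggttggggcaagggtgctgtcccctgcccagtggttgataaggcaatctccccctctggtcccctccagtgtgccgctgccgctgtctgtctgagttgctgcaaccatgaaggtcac
Col10a1, chr10:34389731-34390030, + strand: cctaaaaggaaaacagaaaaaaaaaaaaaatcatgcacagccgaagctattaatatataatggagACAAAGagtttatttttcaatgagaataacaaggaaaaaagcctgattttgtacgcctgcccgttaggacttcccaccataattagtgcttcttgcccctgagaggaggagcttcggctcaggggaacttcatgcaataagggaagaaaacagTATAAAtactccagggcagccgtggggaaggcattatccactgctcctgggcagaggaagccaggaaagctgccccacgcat
The Enpep window held the TATA box on the reverse strand at 2 places, the Matn1 window the GC box on the reverse strand, and the Col10a1 window the first SOX core and the TATA box. These letters are common: the TATA box stood in 13.6% of all 32851 RefSeq windows, the GC box in 35.7%, the first SOX core in 18.7%, the second in 12.6% and the AP-1 site in 7.81%. A window was found for 14452 of the genes tested (79.4%). Among these, the TATA box stood in 9.87% of all, in 13.1% of the 176 higher and in 12.4% of the 202 lower genes. The first SOX core stood in 15.6%, 12.5% and 15.3% in the same order, and the AP-1 site in 6.33%, 8.52% and 4.46%. The GC box stood in 54.0%, 60.2% and 64.9%. Of the 14 called chondrocyte genes with a window, 0 held the first SOX core, 1 held the second and 11 (78.6%) held the GC box. A match is a stretch of letters, not a bound site.

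Cartilage matrix genes were among the largest falls in 6C3+ cells, beside Panx3 (−5.70) and Car8 (−4.36), which are given below. Matn1, which encodes the cartilage matrix protein matrilin-1, was 4.51, 4.39 and 4.48 in the 6C3+ arrays and 11.58, 11.75 and 11.54 in the 6C3- arrays. That gap of −7.17 ± 0.34 (SE), 144-fold, was the largest of all genes called (adjusted p = 1.26e-09). Epyc, which encodes the small proteoglycan epiphycan, was 6.18, 6.13 and 6.16 in 6C3+ cells and 11.04, 11.53 and 11.95 in 6C3- cells. The 3 6C3+ arrays were almost equal to one another, and the difference was −5.35 ± 0.26, or 40.8-fold (adjusted p = 1.26e-09). Matn3, which encodes matrilin-3, was 8.31, 8.24 and 8.90 against 12.35, 12.50 and 12.37 in 6C3- cells, a difference of −3.92 ± 0.23. Snorc, a transmembrane proteoglycan gene of cartilage, was 7.83, 8.77 and 8.42 against 12.17, 11.83 and 12.48, a difference of −3.82 ± 0.43. In each of these genes the populations were separated by several log2 units with no overlap. The table carries no detection calls, so a low level cannot be told from background and the folds of such genes are limited by it.

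Of a list of 25 chondrocyte genes, all measured, 16 were lower, 0 were higher, and all 25 differences were below 0, with a median of −1.61 against 0.07 for all genes. The share called, 16 of 25, stands against 1.5% lower among all genes, and 21 of 25 had no overlap between the arrays against 17.6%. Lists were chosen with earlier results of these data known, so such shares describe the lists and are no test of them. For each list below, 1.24% higher and 1.5% lower among all genes are the shares to set beside its counts. Col9a2 and Col9a3, which encode chains of collagen IX on the surface of cartilage fibrils, fell by 2.99 ± 0.21 and 2.33 ± 0.25. Col11a2, a chain of the fibril core, fell by 2.42 ± 0.33, and Ucma, a secreted protein of the upper growth plate, fell by 2.60 ± 0.24. Fgfr3, the receptor that restrains chondrocyte division, was 8.61, 7.52 and 8.85 in 6C3+ cells and 11.50, 11.91 and 11.12 in 6C3- cells, a difference of −3.18 ± 0.38 (adjusted p = 7.19e-05). Its lowest 6C3- array lay above its highest 6C3+ array by more than 2 log2 units. Acan, which encodes aggrecan, fell less, by 0.98 ± 0.23. Its call (adjusted p = 0.0234) was lost without replicate 2 or 3 of the 6C3- cells or replicate 3 of the 6C3+ cells, where the difference stayed between −1.20 and −0.76 over all alternatives. With the Thy+-titled arrays held out, 12 of the 25 were lower.

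Not every cartilage gene moved by such amounts. Col2a1, the chief fibrillar collagen of cartilage, was 13.47, 13.26 and 13.48 in 6C3+ cells and 13.95, 14.11 and 14.27 in 6C3- cells. All 3 6C3+ arrays lay below all 3 6C3- arrays, yet the difference of −0.71 (95% interval −1.12 to −0.29) did not pass the test (adjusted p = 0.0657), and it passed when arrays were brought to a common median. Comp, which encodes the cartilage oligomeric matrix protein shared with tendon, was 13.21, 13.37 and 13.22 against 13.41, 13.62 and 13.32, with a difference of −0.18 (95% interval −0.46 to 0.10). Levels of Col2a1 and Comp lie toward the highest deposited value of the series, 14.6. Whether that limits the size of their differences was not tested. Chad and Hapln1, which encode chondroadherin and the link protein of aggrecan, had intervals of −0.68 to 0.07 and −1.09 to 0.08. Sox9, the transcription factor that specifies chondrocytes, was 8.71, 9.25 and 9.40 in 6C3+ cells and 11.01, 10.40 and 10.77 in 6C3- cells. These values do not overlap, and the difference of −1.61 ± 0.44 missed the threshold at an adjusted p of 0.0600. It passed under 7 of the alternatives tried. For its partners Sox5 and Sox6 the differences were −0.61 and −0.93, with adjusted p-values of 0.394 and 0.363.

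**Figure D1:**
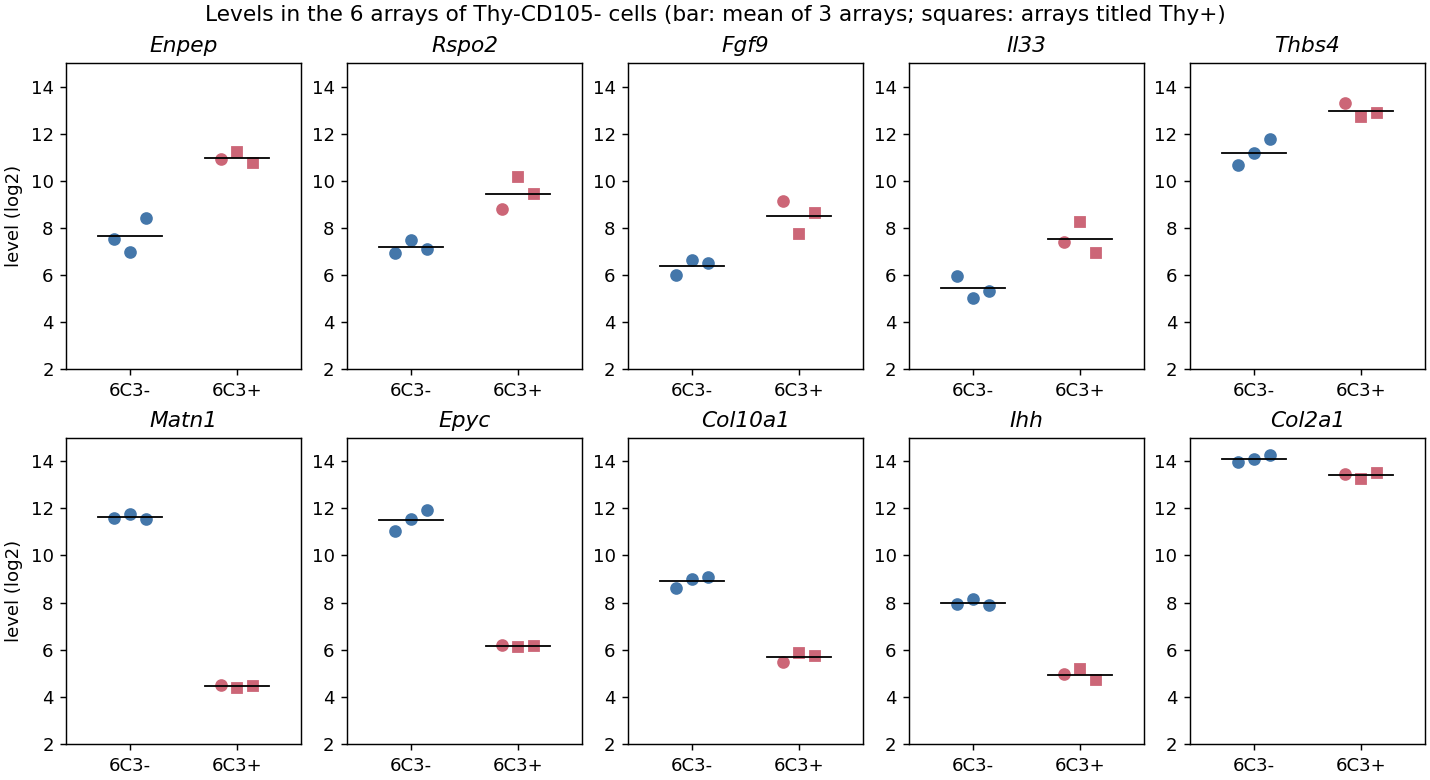
Level (log2, vertical axis) of 10 genes in each of the 6 arrays of Thy-CD105- cells, with 6C3- arrays in blue on the left and 6C3+ arrays in red on the right of each panel. Bars are means of 3 arrays and squares are the 2 arrays titled Thy+. Matn1 runs from 11.54 to 11.75 in 6C3- cells and from 4.39 to 4.51 in 6C3+ cells, while the Col2a1 points lie within 13.26 to 14.27.

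Markers of the hypertrophic stage were also lower. Of 8 listed genes 6 fell, against 1.5% lower among all genes, and 0 rose, with a median of −1.89. With the Thy+-titled arrays held out 3 were lower. The median was −1.19 without shared probe sets, and −0.97 over the 3 members whose level exceeded the median gene. Col10a1, the collagen that defines the hypertrophic zone, was 5.46, 5.85 and 5.74 in 6C3+ cells and 8.63, 9.0 and 9.10 in 6C3- cells, a difference of −3.22 ± 0.27 (adjusted p = 1.40e-06). Ihh, the signal of prehypertrophic cells, was 4.95, 5.17 and 4.72 against 7.93, 8.17 and 7.88, a difference of −3.05 ± 0.23 (adjusted p = 2.70e-07). In both genes the 3 arrays of each population lay close together and far from the other population. Runx3, a transcription factor of chondrocyte maturation, fell by 2.38 ± 0.40 on its chosen probe set, but its second probe set, of nearly the same level, differed by 0.12 with overlap, and the mean of both by −1.13. Pth1r, the receptor of parathyroid hormone-related protein, fell by 0.97 ± 0.19. The call of Alpl, the mineralizing phosphatase (−1.41 ± 0.31, adjusted p = 0.0166), was lost without replicate 1 or 2 of the 6C3- cells or replicate 3 of the 6C3+ cells. Mmp13, the collagenase of the lowest hypertrophic cells, was not called, with a difference of 0.08 (95% interval −0.79 to 0.95). Panx3, which encodes a channel protein of maturing chondrocytes, was 4.28, 3.80 and 3.62 against 10.20, 9.70 and 8.89, but rests on a probe set that may bind several transcripts. Its other 2 probe sets, which have lower signal, differed by 0.28 and −0.56, so its difference of −5.70 changes sign with the choice of probe set.

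Genes of articular and reserve zone cartilage belong to the cells at the joint surface and the top of the growth plate. Among 11 measured, 2 were higher and 1 was lower (median 0.51), against 1.24% and 1.5% of all genes. Dkk3, a secreted protein related to Wnt inhibitors, was 11.91, 11.69 and 11.91 in 6C3+ cells and 10.25, 11.02 and 10.33 in 6C3- cells, a rise of 1.30 ± 0.20 (adjusted p = 0.000738). Barx1, a homeobox gene of joint-forming mesenchyme, was 9.38, 8.78 and 9.07 against 8.10, 7.85 and 7.85, a rise of 1.14 ± 0.20. Sfrp5, a secreted Wnt antagonist, was 7.29, 6.62 and 8.14 against 9.84, 9.85 and 10.50, a fall of −2.71 ± 0.32 (adjusted p = 6.07e-05). The populations did not overlap in any of the 3. Prg4, which encodes lubricin of the joint surface, differed by −0.11 (95% interval −0.78 to 0.57), and Gdf5, a joint-forming growth factor, by 0.63 (0.09 to 1.18, adjusted p = 0.269).

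Connective tissue genes made up part of the rise. Of 11 tendon genes 5 were higher and 0 lower, with a median of 0.85, against 1.24% higher among all genes. The member with the largest difference went the other way: Egr2, a transcription factor shared with the immediate early and Schwann cell lists, was 8.47, 7.02 and 9.80 in 6C3+ cells and 11.16, 10.24 and 10.42 in 6C3- cells, at −2.18 ± 0.64 (adjusted p = 0.0845). It was called lower with the deposited values, with array weights and without replicate 3 of the 6C3+ cells. Thbs4, which encodes thrombospondin-4 of tendon matrix, was 13.29, 12.70 and 12.88 in 6C3+ cells and 10.68, 11.17 and 11.76 in 6C3- cells. The gap was 1.76 ± 0.26, or 3.38-fold (adjusted p = 0.000566), with no overlap. Thbs2, another thrombospondin, rose by 1.01 ± 0.18 on its chosen probe set. Its other probe sets rose by 0.43 with overlap and by 0.96 without. Col14a1, a collagen that coats tendon fibrils, rose by 0.97 ± 0.14. Tnc, which encodes tenascin-C, rose by 0.85 ± 0.15 on its chosen probe set but was −0.09 as the mean of its probe sets. The call of Kera, which encodes the proteoglycan keratocan (1.09 ± 0.26, adjusted p = 0.0286), failed when replicate 2 or 3 of either population was left out. Scx, the transcription factor of tendon progenitors, was 6.68, 6.06 and 6.86 against 5.32, 5.08 and 6.07, which overlap at 6.06 and 6.07, and its difference of 1.05 did not pass (adjusted p = 0.0567). Tnmd, which encodes tenomodulin, differed by 0.67 ± 0.53. Brought to a common median only, 2 of the 11 tendon genes were higher, and with the Thy+-titled arrays held out 2 were.

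Of 17 measured fibroblast genes 3 were higher and 1 was lower, against 1.24% and 1.5% of all genes, with a median of 0.42. Dpt, which encodes dermatopontin, a matrix protein of loose connective tissue, was 11.16, 10.96 and 10.49 in 6C3+ cells and 9.64, 9.76 and 8.22 in 6C3- cells, a rise of 1.66 ± 0.32 (adjusted p = 0.00613). Pdgfra, the growth factor receptor of mesenchymal cells, rose by 0.70 ± 0.14, a call lost with the deposited values, at a common median, as the mean of its probe sets, with the Thy+-titled arrays held out and with the 6 arrays fitted alone. The call of Fbln1, which encodes fibulin-1, a matrix glycoprotein (0.96 ± 0.24, adjusted p = 0.0397), failed when replicate 1 or 3 of either population was left out. Efemp1, which encodes another fibulin, went the other way, with 5.40, 6.08 and 4.46 against 9.10, 8.53 and 8.44, a fall of −3.38 ± 0.52 (adjusted p = 0.000883). All 3 of its 6C3+ arrays lay more than 2 log2 units below its 6C3- arrays. With the 6 arrays fitted alone, 0 of the 17 were called higher. Of 24 collagen genes outside cartilage 2 were higher and 1 lower: besides Col14a1, Col22a1 of tissue junctions had 1.32 ± 0.30 (adjusted p = 0.0219), a call lost without replicate 2 of the 6C3- cells or replicate 1 or 2 of the 6C3+ cells. Col27a1, a collagen of cartilage and developing bone, fell by 1.42 ± 0.27. Col1a1 differed by 0.66 (95% interval 0.00 to 1.33) and Col1a2 by −0.06 (−0.28 to 0.16), both chains of type I collagen.

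**Figure D2:**
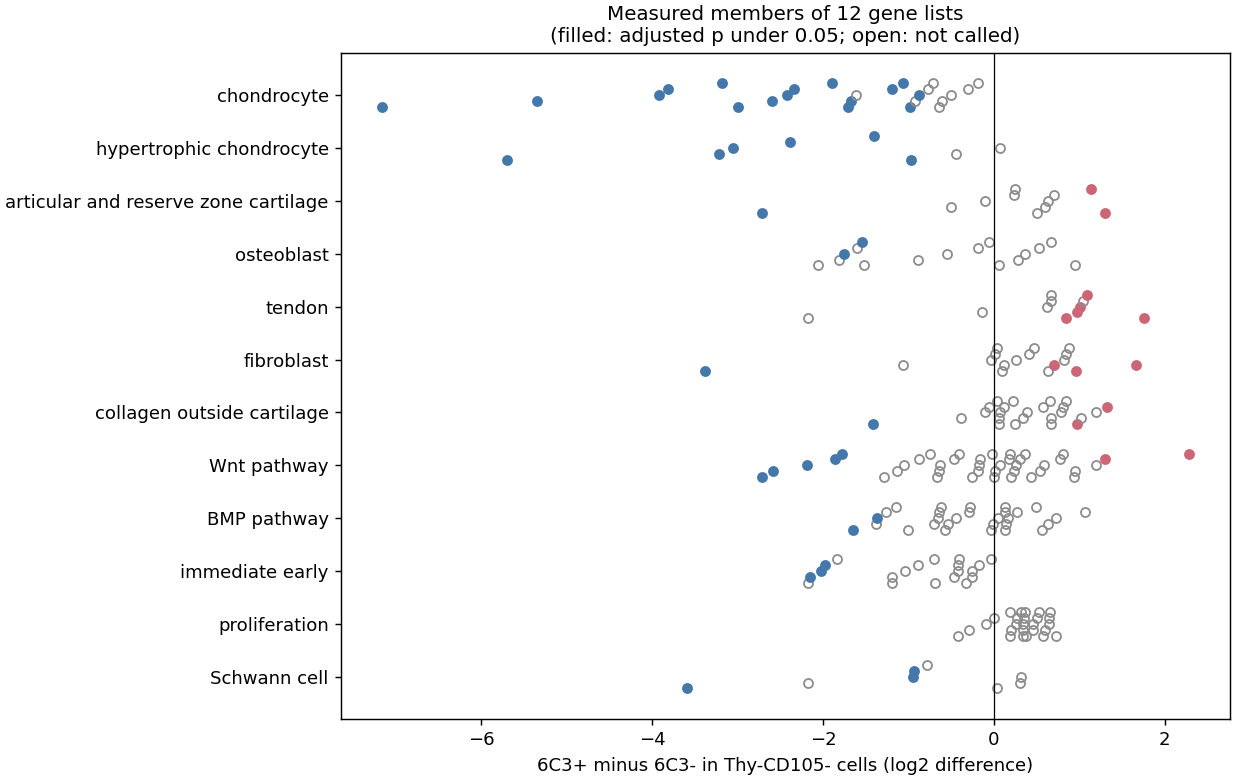
Log2 difference, 6C3+ minus 6C3- (horizontal axis), of each measured gene in 12 lists (vertical axis); filled points were called, blue lower and red higher, and open points were not. The chondrocyte points all lie left of 0 and reach −7.17, while the 5 filled tendon points lie between 0.85 and 1.76.

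Secreted signals and their receptors moved in both directions. Of 40 measured Wnt pathway genes 2 were higher and 5 lower, against 1.24% and 1.5% of all genes, around a median of −0.01. Rspo2, which encodes an R-spondin that strengthens Wnt signals at the receptor, was 8.79, 10.16 and 9.44 in 6C3+ cells and 6.93, 7.49 and 7.10 in 6C3- cells. The lowest 6C3+ array exceeded the highest 6C3- array, and the rise of 2.29 ± 0.37 was 4.88-fold (adjusted p = 0.00115). Its relative Rspo3 was 5.23, 5.40 and 4.53 against 8.04, 7.41 and 7.46, a fall of −2.58 ± 0.29, 6.0-fold (adjusted p = 4.01e-05). These members of the R-spondin family thus differed in opposite directions on their chosen probe sets. Each has another, dimmer probe set that changed little, by 0.18 for Rspo2 and −0.18 for Rspo3, with overlapping arrays, and as means of probe sets the differences were 1.23 and −1.38, both still called. The other higher member was Dkk3. The other lower members were inhibitors of Wnt ligands: Sfrp5, with Sfrp1 (−2.18 ± 0.22) and Frzb (−1.86 ± 0.34), which bind them, and Notum (−1.78 ± 0.25), which removes their lipid. As means of probe sets Sfrp5 was −1.56 and Sfrp1 −1.33. The second probe set of Sfrp5 differed by −0.41 without overlap. Other probe sets of Sfrp1 differed by −0.11 and −0.47 with overlap, and by −1.49 and −2.38 without.

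Of 17 FGF pathway genes 1 was higher and 2 were lower, against 1.24% and 1.5% of all genes. Fgf9, a ligand that acts on chondrocytes and perichondrial cells, was 9.13, 7.72 and 8.63 in 6C3+ cells and 6.00, 6.63 and 6.52 in 6C3- cells, a rise of 2.11 ± 0.38, 4.33-fold (adjusted p = 0.00332). Its receptor Fgfr3 fell, as given above. The decoy receptor gene Fgfrl1 had −1.44 ± 0.33 (adjusted p = 0.0239), a call lost without replicate 1, 2 or 3 of the 6C3- cells or replicate 2 of the 6C3+ cells. Of 13 measured Hedgehog genes 2 were lower and 0 higher: the ligand Ihh, and Ptch1, which encodes its receptor and is itself a target of the pathway. Ptch1 was 10.82, 10.69 and 10.59 in 6C3+ cells and 12.08, 12.42 and 12.20 in 6C3- cells, a fall of −1.53 ± 0.28 (adjusted p = 0.00355), without overlap. As the mean of its probe sets it was −0.68. Gli1, another target, was 8.05, 7.22 and 7.28 against 7.59, 8.21 and 9.60, which overlap, and was not called (adjusted p = 0.343).

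Of 29 measured BMP pathway genes 2 were lower and 0 higher, against 1.5% and 1.24% of all genes. Both calls were lost without single arrays: that of the ligand gene Bmp7 (−1.65 ± 0.36, adjusted p = 0.0149) without replicate 2 or 3 of the 6C3- cells or replicate 3 of the 6C3+ cells, and that of the inhibitor gene Smad7 (−1.37 ± 0.35, adjusted p = 0.0400) without any 6C3- replicate or without replicate 2 or 3 of the 6C3+ cells. The other probe sets of Bmp7 differed by −2.6 and −0.93, both without overlap. Of 18 TGF beta genes 1 was higher and 1 lower. Ccn2, a matrix-bound growth modulator and a target of the pathway, was 12.19, 12 and 12.16 against 13.42, 13.14 and 13.24, a fall of −1.15 ± 0.13 (adjusted p = 4.96e-05). Its arrays differed little within either population. The ligand gene Tgfb3 had 0.98 ± 0.23 (adjusted p = 0.0254), and its call was lost without replicate 1 or 3 of the 6C3- cells or any replicate of the 6C3+ cells. Of 13 IGF genes 1 was higher and 1 lower. Igf1, the growth factor, was 12.11, 12.23 and 11.78 against 10.94, 11.03 and 10.05, a rise of 1.37 ± 0.26, and Irs1, which relays its signal inside the cell, fell by 1.27 ± 0.20. Of 15 Notch genes 0 were called in either direction, against 2.74% of all genes.

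Guidance cues, first described for growing axons and also made by mesenchyme, had 3 of 25 members higher and 1 lower. Among all genes 1.24% were higher and 1.5% lower. Sema3b, a secreted semaphorin, was 9.27, 9.56 and 9.07 in 6C3+ cells and 7.38, 7.63 and 7.45 in 6C3- cells, a rise of 1.81 ± 0.24 (adjusted p = 0.000172) with tight arrays on both sides. The netrin gene Ntn4 had 1.38 ± 0.30 (adjusted p = 0.0155), a call that failed when replicate 2 of either population was left out, and its relative Ntn1 had 1.75 ± 0.40 (adjusted p = 0.0200), lost without replicate 2 or 3 of either. Unc5c, which encodes a netrin receptor, was 7.44, 5.40 and 7.02 against 9.34, 10.08 and 9.15, a fall of −2.91 ± 0.41 (adjusted p = 0.000378). Replicate 2 was its lowest 6C3+ array by far. Of 22 cytokine and chemokine genes 1 was higher and 1 lower. Il33, an alarm cytokine of stromal cells, was 7.39, 8.24 and 6.95 against 5.95, 5.03 and 5.33, a difference of 2.09 ± 0.44 (adjusted p = 0.0113) whose call failed when replicate 2 of either population was left out. Il18, of the same cytokine family, had −0.80 ± 0.21 (adjusted p = 0.0447), lost without any 6C3- replicate or without replicate 1 or 3 of the 6C3+ cells.

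Other large rises came from genes of varied roles. Kcnk2, a background potassium channel, was 8.58, 9.11 and 8.86 in 6C3+ cells and 6.90, 7.33 and 6.60 in 6C3- cells, a rise of 1.91 ± 0.22 with the lowest adjusted p of the 14 largest rises (5.25e-05). C1qtnf7, a secreted protein of the C1q and TNF family, rose by 2.04 ± 0.31. Aldh1a1, a retinaldehyde dehydrogenase, rose by 1.80 ± 0.33, and Vat1l rose by 1.88 ± 0.31. Sbspon, a somatomedin B and thrombospondin domain protein, rose by 1.71 ± 0.33. Rgs4, which shortens G protein signals, had 1.89 ± 0.40 (adjusted p = 0.0135), a call lost without replicate 1 or 2 of the 6C3- cells, and Mettl24 had 2.04 ± 0.45 (adjusted p = 0.0180), lost without either of these or without replicate 2 of the 6C3+ cells. Of 10 measured cell surface peptidases Enpep alone was called. Of 9 antigen presentation genes 1 was higher: B2m, the light chain of class I molecules, was 12.48, 12.37 and 12.10 against 11.23, 11.43 and 11.49, a rise of 0.93 ± 0.16 (adjusted p = 0.00238).

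Several of the largest falls lay outside the matrix genes. Prkg2, which encodes a cGMP-dependent kinase needed for growth plate maturation, was 5.10, 5.02 and 4.65 in 6C3+ cells and 8.58, 9.32 and 8.18 in 6C3- cells, a fall of −3.77 ± 0.28 (adjusted p = 2.42e-07). S100b, a calcium-binding protein of chondrocytes and Schwann cells, was 7.65, 5.74 and 6.22 against 9.93, 10 and 10.46, a fall of −3.60 ± 0.39. Neither gene overlapped between the populations on these probe sets, but a second one of S100b differed by −0.20 with overlap, and the mean of both was −1.90. Foxa2 and Foxa3, forkhead factors that act in hypertrophic differentiation, were −2.38 ± 0.27 and −2.84 ± 0.39, the 2 called among 19 forkhead genes. Kctd4, Rlbp1, Ncmap, A2m and Chadl, the last a relative of chondroadherin, were lower, with differences from −3.63 to −3.27. Cd24a, a surface protein of immature cells, fell by 2.02 ± 0.20. Car8, a relative of the carbonic anhydrases, was 4.99, 4.39 and 4.00 against 9.17, 8.80 and 8.49, a fall of −4.36 ± 0.39, and was −0.47 without its shared probe set, where it was not called. The probe set read there had a mean level of only 4.1. A further one, at 3.8, differed by −1.69 without overlap.

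Immediate early genes, transcription factors induced soon after cells are stimulated, were lower as far as they were called: 3 of 20 were lower, against 1.5% of all genes, and 0 were higher. All 20 differences were below 0 with a median of −0.69, which single arrays moved: it was −0.46 without replicate 3 and −1.08 without replicate 2 of the 6C3- cells, and −1.40 with the Thy+-titled arrays held out. Arrays did not overlap for 8 of the 20, against 17.6% of all genes. Junb, a component of AP-1, was 9.20, 9.08 and 9.34 in 6C3+ cells and 11.17, 10.91 and 12.01 in 6C3- cells, a fall of −2.15 ± 0.33 (adjusted p = 0.000732). Myc, which drives growth, was 7.99, 7.96 and 7.75 against 10.03, 8.98 and 10.76, a fall of −2.02 ± 0.40 (adjusted p = 0.00669). The 6C3+ arrays of both genes were close together and the 6C3- arrays spread wider. Fosb, another AP-1 gene, had −1.98 ± 0.48 (adjusted p = 0.0323), and its call was lost without any 6C3- replicate or without replicate 1 or 2 of the 6C3+ cells. Fos itself differed by −0.33 (95% interval −0.77 to 0.11) and Egr1 by −0.42 (−0.80 to −0.05), not called. Of 12 heat shock and stress genes 3 were lower and 0 higher: Gadd45g (−1.80 ± 0.28) and Gadd45b (−1.46 ± 0.29), which respond to growth arrest, and the chaperone partner Dnajb1 (−1.31 ± 0.17). The call of Gadd45b was lost without shared probe sets.

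Genes of bone formation, marrow support and division were read from lists of their own, against 1.24% higher and 1.5% lower among all genes. Of 16 measured osteoblast genes 2 were lower and 0 higher: Sp7, the transcription factor osterix, was 6.93, 7.0 and 6.71 in 6C3+ cells and 8.71, 9.18 and 7.99 in 6C3- cells, a fall of −1.75 ± 0.24 (adjusted p = 0.000280), and Smpd3, a sphingomyelinase needed for mineralization, fell by 1.54 ± 0.26. Ibsp, which encodes bone sialoprotein, had a wide interval of −3.54 to −0.08 around −1.81 (adjusted p = 0.332). Of 19 measured genes of haematopoietic support 1 was higher, Igf1, and 2 were lower. Angpt1, the ligand of Tie2, was 5.26, 5.89 and 5.32 against 7.65, 6.60 and 7.34, a fall of −1.71 ± 0.31, or −0.84 as the mean of its probe sets. Dlk1, a membrane protein of the Notch ligand family, fell by 1.08 ± 0.21, a call lost as the mean of probe sets, without shared probe sets and with the 6 arrays fitted alone. Kitl (−0.64, 95% interval −1.99 to 0.70), Cxcl12 (0.43, −0.14 to 1.0) and Lepr (0.62, −1.02 to 2.26), best known of these factors, were not called. Of 26 measured proliferation genes 0 were called, against 2.74% of all genes, and 23 had differences above 0. Their median was 0.35, against 0.07 for all genes. Without replicate 3 of the 6C3- cells the 2 medians were 0.18 and 0.05, and at a common median 0.18 and −0.02. Mki67, which marks cycling cells, differed by 0.51 (95% interval 0.00 to 1.01). Of 30 limb and Hox genes 1 was higher, Hoxd9 (1.48 ± 0.21, adjusted p = 0.000307), and 1 lower, Hoxc8 (−1.38 ± 0.30, adjusted p = 0.0152), the latter lost without replicate 1 of the 6C3- cells or replicate 3 of the 6C3+ cells.

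The remaining lists held few called members, to be read against 1.24% higher and 1.5% lower among all genes. Of 22 integrin and cadherin genes 2 were higher: Cdh13, an adhesion molecule anchored to the membrane by lipid, was 10.32, 9.42 and 9.80 in 6C3+ cells and 8.09, 8.04 and 8.43 in 6C3- cells, a rise of 1.66 ± 0.28 (adjusted p = 0.00202). Its arrays did not overlap on this probe set. The next one, of mean level 8.87 against 9.29, rose by 1.06 with overlap. Dimmer ones rose by 1.70 without and 0.16 with overlap. Itgbl1, an integrin-like secreted protein, had 1.0 ± 0.24 (adjusted p = 0.0326), a call that failed without any 6C3- replicate or without replicate 1 or 3 of the 6C3+ cells. Of 21 hypoxia and glycolysis genes 1 was higher and 2 were lower. Aldoc, a glycolytic aldolase, was 6.41, 7.23 and 6.68 against 9.42, 8.53 and 9.14, a fall of −2.26 ± 0.26, but differed by only −0.43 without shared probe sets. The probe set read there had a mean level of only 4.1. The carbonic anhydrase genes went apart: Car12 fell by 1.72 ± 0.31, or by 0.69 as the mean of its probe sets, while Car9 had 0.96 ± 0.25 (adjusted p = 0.0454), a call that failed when any of the 6 arrays was left out. Of 17 vessel growth factor genes Angpt1 and Ednrb were lower and Vegfc, a lymphatic growth factor, was higher. Vegfc was 10.56, 9.14 and 10.27 against 8.62, 8.53 and 9.16, which overlap, and its call (1.22 ± 0.30, adjusted p = 0.0312) failed without replicate 1 or 2 of the 6C3- cells or replicate 1 or 3 of the 6C3+ cells. Its other probe sets, of lower signal, rose by 1.93 and 1.76 without overlap.

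Of 15 adipocyte genes 1 was higher and 1 lower, against 1.24% and 1.5% of all genes. Cebpb, a transcription factor of early fat cells and of stress, was 7.35, 8.0 and 7.83 in 6C3+ cells and 9.59, 8.38 and 10.05 in 6C3- cells, at −1.61 ± 0.33 (adjusted p = 0.00948), lost without replicate 1 or 3 of the 6C3- cells or replicate 1 of the 6C3+ cells. Plin2, a lipid droplet protein, had 0.60 ± 0.15 (adjusted p = 0.0308), lost without any 6C3- replicate or without replicate 2 or 3 of the 6C3+ cells. Of 13 small leucine-rich proteoglycans Kera was the 1 higher and Epyc the 1 lower. Of 19 measured metalloproteases and inhibitors 1 was higher, Mmp23 (0.73 ± 0.18, adjusted p = 0.0370), lost without replicate 1 or 2 of the 6C3- cells or replicate 1 or 3 of the 6C3+ cells. Complement (8 measured) and interferon response genes (13 measured) had 0 called in either direction, against 2.74% of all genes. Of 11 B lymphoid genes Cd24a was the 1 lower.

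Markers of other cell types were read beside these results: the gate is meant to leave out endothelial and blood cells, and its labelled antigens name no marker of muscle, keratinocytes, pericytes or Schwann cells. Of 15 endothelial, 16 myeloid, 7 erythroid, 13 skeletal muscle, 12 keratinocyte and 15 pericyte and smooth muscle genes 0 were called in any list. Among all genes 2.74% were called, so 0 calls in such short lists say little. Differences were above 0 for 14 of the 15 endothelial and 15 of the 16 myeloid genes. Their medians were 0.23 and 0.30, against 0.07 for all genes. In each of these lists 13 genes lay below the median gene level in both populations. Above 0 in the other lists were 6 erythroid, 6 skeletal muscle, 8 keratinocyte, and 10 pericyte and smooth muscle genes. The mean level of the endothelial list was 5.55 to 5.95 in 6C3+ arrays and 5.32 to 5.62 in 6C3- arrays, and that of the myeloid list 5.51 to 5.97 against 5.40 to 5.45. The array carries no detection calls, so none of these markers can be stated to be at 0. Schwann cell genes had 3 of 8 lower, against 1.5% of all genes: S100b, which chondrocytes also express, Cdh19 (−0.95 ± 0.17) and Erbb3 (−0.94 ± 0.23, adjusted p = 0.0296), the last lost without any 6C3- replicate or without replicate 3 of the 6C3+ cells. Cdh19 averaged 3.86 in 6C3+ and 4.81 in 6C3- cells, and Erbb3 5.23 and 6.16, all below the median gene mean of 6.76. A second probe set of Erbb3 differed by −0.40 with overlap. Sox10, the factor that specifies these cells, was not called, at −0.78 ± 0.39. The list's mean level was 5.58 to 6.35 in 6C3+ arrays and 7.0 to 7.12 in 6C3- arrays. Of 8 osteoclast genes Ctsk, a protease that stromal cells also make, was higher by 1.03 ± 0.20. The part of such cells in the result was not tested.

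The same step among cells that carried CD105 gave a comparison with no shared arrays: Thy-6C3+CD105+ minus Thy-6C3-CD105+, 3 arrays each. There 247 genes (1.36%) were called, 102 higher and 145 lower. Both steps called 84 genes higher and 130 lower, and 0 in opposite directions. The shared genes were 43.0% of the calls among CD105- cells and 86.6% of those among CD105+ cells. Of the 498 genes called among CD105- cells 489 had the same sign among CD105+ cells, against 59.8% of all genes. Across all genes, which are not independent, the correlation of the differences was 0.602.

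Whether any gene differed more in one step than in the other was tested by the interaction of 6C3 and CD105. By limma 0 genes (0%) passed, with 543 at an unadjusted p under 0.05 and a smallest adjusted p of 0.665. So nothing here is called particular to CD105- cells. Matn1 fell by 5.96 ± 0.34 among CD105+ cells and Epyc by 5.62 ± 0.26. Enpep rose by 3.57 ± 0.47 there, and Rspo2 by 1.80 ± 0.37 (adjusted p = 0.0164). Among the chondrocyte genes 13 were lower in that step, and among the tendon genes 4 were higher. The lowest unadjusted interaction p was that of Ednrb, the endothelin receptor of pigment and neural crest cells, which was 5.01, 5.0 and 5.12 in 6C3+ cells and 7.08, 6.73 and 6.67 in 6C3- cells. It fell by 1.78 ± 0.26 among CD105- cells and was 0.22 ± 0.26 among CD105+ cells (unadjusted p = 3.65e-05, adjusted p = 0.665). The other 2 probe sets of Ednrb with lower signal differed by −0.35 and −0.09 among CD105- cells. Ihh and Car8 were called lower in both steps, at −1.92 ± 0.23 and −2.52 ± 0.39 among CD105+ cells, with no interaction past the test.

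**Figure D3:**
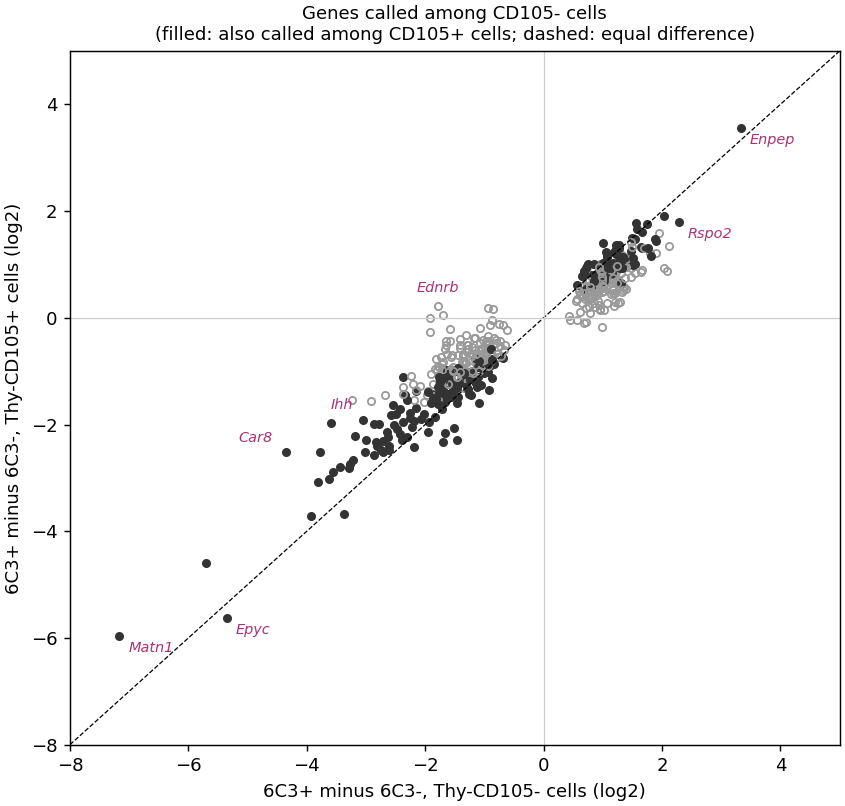
Log2 difference between 6C3+ and 6C3- cells among CD105- cells (horizontal axis) and among CD105+ cells (vertical axis) for the 498 genes called among CD105- cells; filled points were called in both. The dashed line marks equal difference, and 489 of 498 lie on the same side of 0 in both. Of the labelled genes, Matn1, Car8, Ihh and Rspo2 lie nearer 0 on the vertical axis, Enpep and Epyc farther. Ednrb lies near 0 on the vertical axis. The genes were chosen by their call on the horizontal axis, a choice that favours larger differences there.

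Levels over the 6 sorted populations place the step in the series. Matn1 had a mean of 11.62 ± 0.11 in the Thy-6C3-CD105- arrays, 11.54 ± 0.20 in their CD105+ counterpart, then 8.08 ± 0.42 in Thy+6C3-CD105+, 6.13 ± 0.46 in Thy+6C3-CD105-, 5.59 ± 0.88 in Thy-6C3+CD105+, and lowest, at 4.46 ± 0.06, in the 6C3+ cells of this comparison (SD, n = 3 each). The Thy-6C3- populations stood next to each other at the top within their spread, and the middle pair of Thy+6C3-CD105- and Thy-6C3+CD105+ also lay within its spread. Col10a1 was likewise highest in the Thy-6C3- populations, at 8.91 ± 0.25 without and 7.92 ± 0.46 with CD105, against 5.68 ± 0.20 in the 6C3+ cells and 5.98 ± 0.54 and 5.29 ± 0.04 in the Thy+ populations. Both genes were thus also lower in the Thy+ populations, which lack 6C3, than in the Thy-6C3- populations. Matn1 was intermediate in Thy+6C3-CD105+ cells, where its 8.08 lay well above the 4.46 of the 6C3+ cells. Genes that rose were of both kinds. Some were also high in Thy+ cells: Rspo2 averaged 9.46 ± 0.68 in 6C3+ cells and 8.95 ± 0.61 and 9.24 ± 0.70 in the Thy+ populations. Fgf9 averaged 8.49 ± 0.71 in 6C3+ cells and 9.09 ± 0.51 in Thy+6C3-CD105- cells, and Thbs4 12.96 ± 0.30 against 13.16 ± 0.38. Others were highest in both 6C3+ populations. Enpep was at 10.97 ± 0.24 and 10.84 ± 0.13 there and at 7.28 ± 0.37 to 8.32 ± 0.57 in the 6C3- ones, and Kcnk2 at 8.85 ± 0.27 and 8.52 ± 0.13 there and at 6.94 ± 0.37 to 7.70 ± 0.16 in the 6C3- ones. C1qtnf7, Ntn1, Ntn4 and Hoxd9 likewise had their highest means in the 6C3+ populations. Col22a1 averaged 9.44 and 9.41 in these, 8.12 and 8.24 in the Thy-6C3- populations, and was lowest in the Thy+ ones, at 6.15 and 5.66. Comparisons of these populations with Thy-6C3-CD105- cells share the latter's arrays, so no overlap between them is given.

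**Figure D4:**
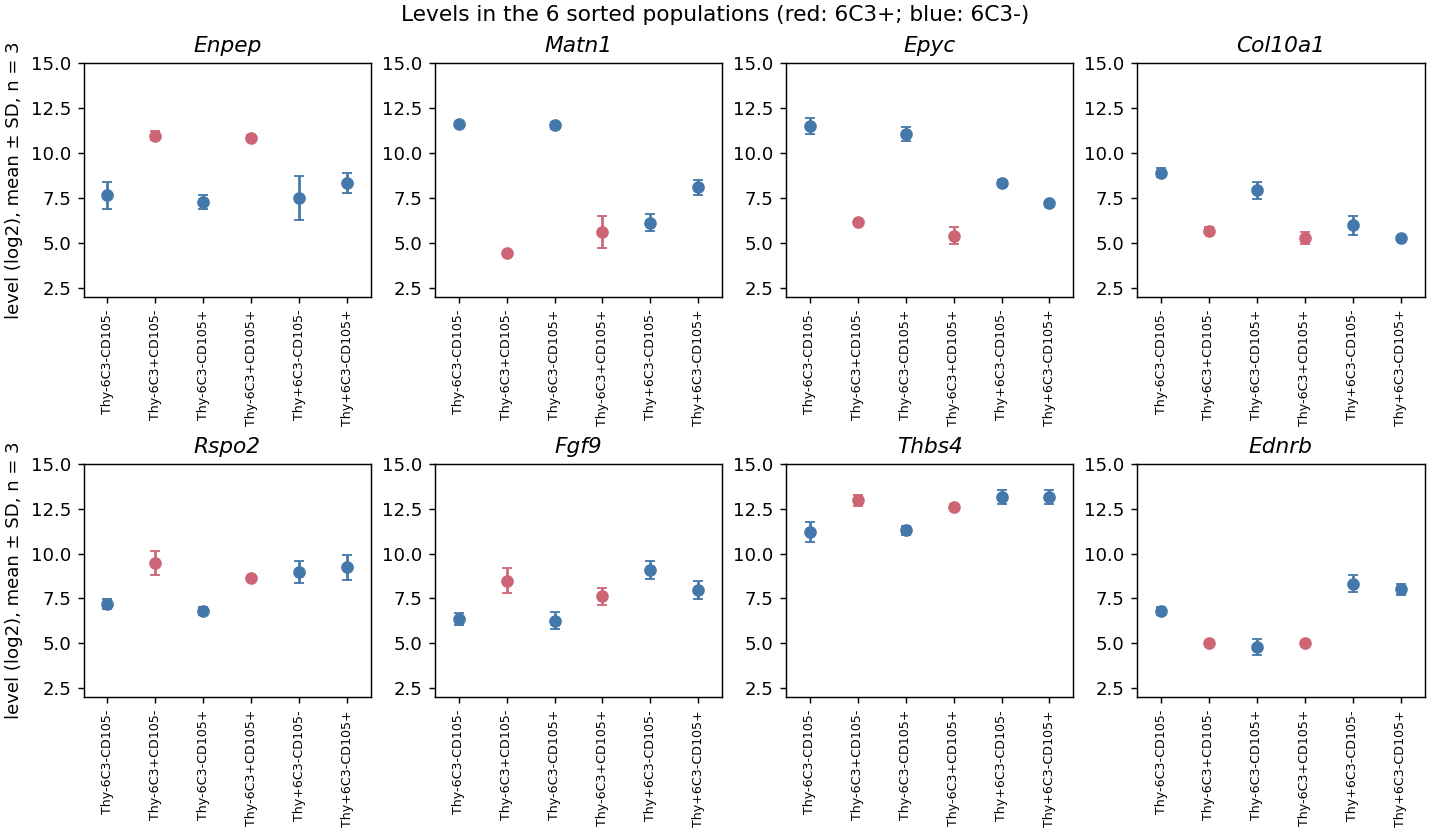
Level (log2, vertical axis) of 8 genes in the 6 sorted populations (horizontal axis), as the mean of 3 arrays with the SD as error bar, 6C3+ populations in red. Enpep is high in the red populations at 10.97 and 10.84, while Matn1 is highest in the Thy-6C3- populations at 11.62 and 11.54.

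Genes with a pattern like that of Enpep were sought over the 6 population means, as a description. The 8 with the highest Pearson correlation were Manba (0.998), H2-D1, Cd1d1, Ogdh, Hip1, Rusf1, Dctn5 and Hpf1 (0.982). Their differences across the step were small beside the 3.33 of Enpep. Cd1d1, an antigen-presenting molecule for lipids, was 8.63, 8.88 and 8.54 in 6C3+ cells and 7.48, 7.51 and 8.03 in 6C3- cells, a rise of 1.01 ± 0.21 (adjusted p = 0.0121). Its call was lost without replicate 1 or 2 of the 6C3- cells or replicate 2 of the 6C3+ cells. Manba, which encodes a lysosomal mannosidase, differed by 0.62 ± 0.26 (adjusted p = 0.297) and H2-D1, a class I molecule, by 0.75 ± 0.36 (adjusted p = 0.365). The other 5 ran from 0.12 to 0.58 and were not called, so a high correlation over 6 means does not mark a large difference.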

How the data were processed

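RNA of sorted limb cells was measured on an Affymetrix mouse genome array, scanned with GCOS software per the labels' protocols. The deposited table gives log2 values per probe set (2.55 to 14.6), whose scale was judged from their range. For the authors' normalization, no method is given in the sources used. All 19 arrays were quantile normalized, since their medians differed by more than 0.1. Of 45101 probe sets, 64 controls were left out, 34945 had 1 gene symbol, 932 several and 9160 none in the platform annotation; each gene was given its probe set of highest mean over the 18 neonatal arrays. The number of arrays limits the precision.

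limma 3.58.1 (R 4.3.3) was fitted over the 18 neonatal arrays with 1 mean per population and eBayes with trend (12 residual and 5.38 prior degrees of freedom), two-sided, with Benjamini-Hochberg adjustment over 18193 genes and a threshold of 0.05. Errors of differences are SE and errors of levels SD. Intervals are at 95%. The fit was tested on simulated data.

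Named genes were the sorted antigens, the 14 largest rises and 14 largest falls among called genes without overlap whose higher mean exceeded the median gene mean, up to 4 called members of each of 41 lists, and the 8 genes most like Enpep; further list members were named after their values were seen. Members and lists were chosen with earlier results of these data known. Alternatives changed the scaling, probe sets, level filter, eBayes trend, weights, blocks, grouping, arrays used and, for the count of calls, a 2-fold minimum. Shared probe sets were taken as all those with the suffix _s_at, _x_at or _a_at. List genes without a symbol in the annotation, such as Runx2 and Spp1, were not analysed here, nor was the adult array compared.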

Additional observations from a re-analysis of the deposited data

How the results depend on the processing

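Main settings called 498 genes in the step. The count fell to 167 when the 2 Thy+-titled arrays formed a population of their own and to 204 with the 6 arrays fitted alone; the smaller number of arrays is part of both constructions. It was between 359 and 425 when each of the 6 arrays was left out in turn, and between 397 and 645 under the other alternatives, which included the deposited values (412), a common median (397), the mean of probe sets (531) and array weights (626). When at least a 2-fold difference was also required, 348 remained of the 498. None of the 498 changed sign in these fits, except 1 under the mean of probe sets and 9 of the 454 measured without shared probe sets. Among named genes, Tnc turned from 0.85 to −0.094 and Panx3 from −5.70 to 0.28: Tnc as the mean of probe sets, Panx3 without shared probe sets, since other probe sets stood for the gene. Using the mean of probe sets also moved Ntn4 from 1.38 to 0.85, Ntn1 from 1.75 to 1.15 and Rgs4 from 1.89 to 1.12; Ntn1 and Ntn4 then lost their calls. At a common median the list medians were 0.29 for articular and reserve zone cartilage, 0.20 for fibroblast and 0.61 for tendon genes. The interaction gave 0 genes under every alternative run, leave-outs included.

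With the replicate number as a block 506 genes were called, 461 of them shared with the 498, and the interaction again gave 0. The numbers are only shared: deviations of same-numbered arrays of the 2 populations correlated at −0.23, −0.24 and −0.14, and 0 of 3 arrays correlated best with its own number. With the poly-A set as a block 645 were called, 483 of them shared. Of 98 named called genes, 80 kept their call at a common median, 48 when grouped by title and 69 with the 6 arrays alone. With 3 arrays a population and no detection calls, low levels and small differences are the least certain.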
